A study of Homo sapiens with 6 samples.

Results

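Chromosome 20 is followed here gene by gene, in order of position, in 2 cultured human lines labelled as lymphoma B cells. LY19WT is labelled EZH2 wild type. LY19Y646F is labelled as expressing the mutant EZH2-Y646F all the time from a CMV promoter, a strong viral promoter that sits outside the control of the native gene. Both lines were untreated, grown in the same medium and taken at passages 10 to 15, and each gave 3 RNA-seq libraries described as biological replicates. Whether these came from separate cultures is not given, so the p-values below measure only the spread between libraries, and whether either line is 1 clone is not given.

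The members were chosen by name and level. The 6 tables hold 1273 gene names on chromosome 20, of which 1119 were present in all 6 libraries and 276 averaged at least 0.5 FPKM (mapped fragments scaled to transcript length and library total) over them. Leaving out 9 names fixed by the rule gave 267 genes. By the same presence and level, with no names left out, all chromosomes held 10646. The shares over all genes below also leave out no names. The row of EDEM2, EIF6 and neighbouring genes and the row of UQCC1 had a failed status in at least 1 library, which left 265 for the tests. Of these, 196 were protein-coding, 36 were pseudogenes and 33 were of another or an unmatched type, and 23 were rows that name several genes. Just inside the minimum were COX7BP2, RPL35AP and RP11-359G22.2 at 0.506, 0.514 and 0.521 FPKM, and just outside were RPL31P2, SLC12A5 and MIR296 at 0.481, 0.465 and 0.457 FPKM. The mean over both lines chose the members, so a gene that reached it in 1 line alone had to differ: 33 of the 265 reached 0.5 FPKM only in LY19Y646F and 17 only in LY19WT.

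EZH2 is the enzyme of Polycomb repressive complex 2, which methylates lysine 27 of histone H3 at silent genes, often over long stretches of chromatin, and mutations of this tyrosine recur in lymphomas of germinal centre origin. Human chromosomes carry genes with unrelated roles side by side, and expression can differ over whole chromosomes, over chromatin domains or at single genes. Chromosome 20 is a gene-rich chromosome known in blood and solid tumours for losses and gains of its long arm, and it carries genes for transcription coactivators, splicing factors, signalling proteins and protein transport.

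The sequences below are the 250 bases before the RefSeq start of 7 genes on which the results turn: CDS2 and TRMT6 from the stretch with the highest median change, NCOA3, NFATC2 and ID1, which were near absent or low in LY19WT, PREX1, which was near absent in LY19Y646F, and RPRD1B, whose start lies beside that of a gene that changed the other way. They were matched by symbol and are given 5′ to 3′ on the gene's strand with GRCh38.p14 coordinates, a build other than the hg19 of the expression files.
CDS2, chr20:5126758-5127007, plus strand: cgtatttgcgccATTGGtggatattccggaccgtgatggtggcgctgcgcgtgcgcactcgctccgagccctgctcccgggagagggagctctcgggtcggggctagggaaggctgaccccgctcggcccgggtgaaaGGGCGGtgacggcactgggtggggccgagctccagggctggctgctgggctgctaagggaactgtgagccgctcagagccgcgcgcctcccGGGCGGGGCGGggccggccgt
TRMT6, chr20:5950534-5950783, minus strand: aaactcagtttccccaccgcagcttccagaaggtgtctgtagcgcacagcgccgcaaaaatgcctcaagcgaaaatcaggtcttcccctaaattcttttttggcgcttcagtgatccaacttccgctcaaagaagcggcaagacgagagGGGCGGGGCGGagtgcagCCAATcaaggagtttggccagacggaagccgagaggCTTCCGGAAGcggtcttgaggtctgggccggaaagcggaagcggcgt
NCOA3, chr20:47501637-47501886, plus strand: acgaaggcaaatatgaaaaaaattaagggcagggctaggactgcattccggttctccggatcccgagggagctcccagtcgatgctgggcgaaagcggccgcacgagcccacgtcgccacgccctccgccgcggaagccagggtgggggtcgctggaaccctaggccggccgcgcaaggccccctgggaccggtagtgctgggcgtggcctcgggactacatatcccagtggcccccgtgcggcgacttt
NFATC2, chr20:51562840-51563089, minus strand: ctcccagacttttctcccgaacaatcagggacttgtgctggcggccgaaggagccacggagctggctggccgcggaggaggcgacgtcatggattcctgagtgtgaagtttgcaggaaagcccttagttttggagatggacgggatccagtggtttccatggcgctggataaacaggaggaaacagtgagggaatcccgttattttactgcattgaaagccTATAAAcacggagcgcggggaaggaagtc
ID1, chr20:31605039-31605288, plus strand: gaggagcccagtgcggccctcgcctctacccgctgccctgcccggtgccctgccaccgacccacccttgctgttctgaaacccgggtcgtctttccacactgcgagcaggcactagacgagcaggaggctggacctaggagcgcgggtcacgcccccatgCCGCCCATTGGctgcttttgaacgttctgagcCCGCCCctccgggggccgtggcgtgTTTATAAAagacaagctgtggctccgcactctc
PREX1, chr20:48828000-48828249, minus strand: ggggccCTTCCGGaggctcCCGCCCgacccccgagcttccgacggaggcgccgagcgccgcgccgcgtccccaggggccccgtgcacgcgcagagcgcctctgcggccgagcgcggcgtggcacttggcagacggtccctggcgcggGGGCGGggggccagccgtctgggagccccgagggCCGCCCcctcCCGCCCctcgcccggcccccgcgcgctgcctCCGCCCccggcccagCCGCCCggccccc
RPRD1B, chr20:38033496-38033745, plus strand: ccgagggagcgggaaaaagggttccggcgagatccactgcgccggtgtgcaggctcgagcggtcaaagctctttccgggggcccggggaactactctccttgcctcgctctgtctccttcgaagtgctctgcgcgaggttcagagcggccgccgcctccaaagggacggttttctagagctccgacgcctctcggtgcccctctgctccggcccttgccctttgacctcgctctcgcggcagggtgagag
Capitals mark matches, on either strand, to TATAAA of the TATA box, CCAAT of the box bound by NF-Y, CACGTG of the E-box, GGGCGG of the GC box, CCGGAAG bound by ETS factors, or ATTTGCAT of the octamer. Neighbouring matches to GGGCGG share bases in CDS2 and TRMT6, as do those to CCGGAAG in TRMT6 and to TATAAA in ID1. GGGCGG was matched in 66.9% of the promoters of the 142 protein-coding genes of chromosome 20 that were alone in their row and had a RefSeq entry, of 176 such genes. Among all 35116 promoters of the RefSeq table, which include non-coding genes, 42.6% held it. CCGGAAG was matched in 16.9% against 8.52%, and TATAAA in 6.34% against 10.7%. For CCAAT the shares were 31.7% and 32.0%, for CACGTG 7.75% and 6.34%, and for ATTTGCAT 2.11% and 1.63%. The median GC content of these windows was 66.6% for the chromosome 20 genes and 58% for all. PREX1 stood at 84.8% GC and NFATC2 at 54.8%. These matches are descriptions of letters in the windows, not measured sites.

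Depth per library is not given in the sources used here and FPKM do not keep it, so precision rests on the spread of 3 libraries. The summed FPKM of a library lay between 806102 and 1020940, and the 10 highest rows held 27.5% of it in LY19WT replicate 3 against 5.71% to 9.38% elsewhere. Of the B cell markers examined, 5 were present in all 6 libraries and summed to 478 to 829 FPKM in LY19WT and 1128 to 2505 FPKM in LY19Y646F. MS4A1, the gene for CD20, stood at 0.0688, 0.0880 and 0.140 FPKM in the 3 LY19WT libraries and at 83.1 FPKM in LY19Y646F replicate 1, the 1 library of that line with a value used here. T cell markers (5 of 5 present) summed to at most 0.0370 FPKM in LY19WT and 1.13 to 1.47 in LY19Y646F, and CD3D, CD3E, CD3G and CD2 were at 0 in all LY19WT libraries. Myeloid markers (5 of 5 present) summed to 11.4 to 13.9 FPKM in LY19WT, most of it LYZ, and 0.374 to 0.723 in LY19Y646F. The erythroid and epithelial markers present in every library (2 of 3 each) summed to at most 0.102 FPKM in any library, with HBB at 0 in all 6. These marker levels move with the lines, and their part in the results was not tested. In bulk RNA, fewer cells of a type and less RNA per cell cannot be told apart.

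The chromosome as a whole stood higher in LY19Y646F. Named rows of chromosome 20 held 1.40% to 1.95% of the FPKM total in the LY19WT libraries and 2.06% to 2.59% in the LY19Y646F libraries, without overlap. The 1.40% was LY19WT replicate 3, where the 10 highest rows held 27.5% of the total, and replicates 1 and 2 had 1.95% and 1.86%. These sums include the names left out by the rule, and shares of other chromosomes were not counted. By limma on log2(FPKM + 1) over all 10588 genes tested, with Benjamini-Hochberg adjustment and a threshold of 0.05, 100 of the 265 genes of chromosome 20 were called, beside 32.7% of all genes. Of these, 78 were higher in LY19Y646F, 29.4% of the members beside 16.3% of all genes, and 22 were lower, 8.30% beside 16.4%. Of the called members, 45 were at least 2-fold higher on this scale (9.27% of all genes were called and that far higher) and 12 at least 2-fold lower (10.9% of all genes). A further 15 were at least 2-fold higher and 8 at least 2-fold lower without being called.

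All 100 called genes had 3 libraries of one line above the 3 of the other. Without regard to the test, 145 of the 265 did not overlap between the lines, beside 48.1% of all genes. LY19Y646F was the higher line for 108 of them and the lower for 37, each beside 24.0% of all genes. The median change was 0.32 on the log2(FPKM + 1) scale against -0.04 over all genes, and 174 of the 265 changes were above 0, 65.7% against 48.1%.

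Library by library, the median deviation of the 265 genes from their 6-library means was -0.12, -0.25 and -0.26 in LY19WT and 0.24, 0.11 and 0.087 in LY19Y646F. The SD over libraries was 0.0769 and 0.0802 (n = 3 each), so every LY19Y646F library lay above every LY19WT library. The short arm, with 98 genes, had a median change of 0.41 with 31 genes higher and 9 lower. The long arm, with 167 genes, had a median of 0.30 with 47 higher and 13 lower. On both arms the libraries of the lines did not overlap.

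Among the 22 autosomes, chromosome 20 ranked first by median change and by the share of genes called higher, and last by the share called lower. Chromosomes 21 and 8 followed with medians of 0.12 each, and chromosome 13 was lowest with -0.46. The rank by median stayed first in 19 of 19 alternative fits. Ranks are descriptions of these 6 libraries, and no test of the difference between chromosomes was made.

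**Figure D1:**
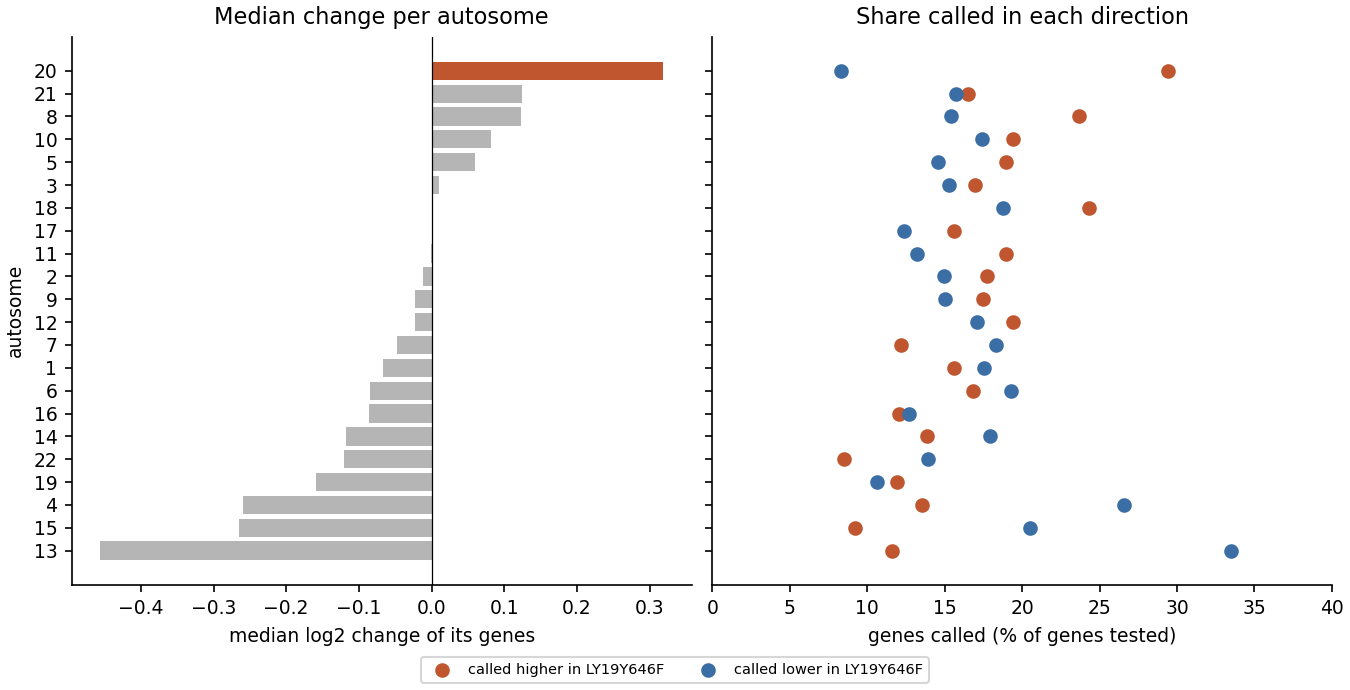
Median log2(FPKM + 1) change (LY19Y646F minus LY19WT) of the genes of each autosome (left, bars) and the percent of its genes called higher or lower by limma (right, points). Chromosome 20, in orange on the left, has the highest median (0.32), the highest share called higher (29.4%) and the lowest share called lower (8.30%).

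By gene type, the 196 protein-coding members had a median of 0.41 (68 higher and 18 lower), beside -0.02 over 7236 protein-coding genes of all chromosomes. In a fit of protein-coding genes alone, 46.4% of these members were called beside 40.1% of all genes in it. The 33 members of another or an unmatched type had a median of 0.44, with 9 higher and 3 lower, beside -0.06 over all 2231 such genes tested. The 36 pseudogenes had a median of -0.30, with 1 higher and 1 lower, beside -0.09 over all pseudogenes tested. Shares called over all pseudogenes and over all genes of another type were not counted. Reads of processed pseudogenes can come from near-identical parent genes elsewhere, so their values are uncertain. The most abundant members include TMSB4XP6, a pseudogene of the actin-binding peptide gene TMSB4X, at 2819, 3203 and 2874 FPKM in LY19WT and 2673, 1969 and 1267 in LY19Y646F. Its libraries did not overlap, yet the difference of -0.65 was not called (limma adjusted p = 0.14), and it was called without LY19Y646F replicate 1 (limma adjusted p = 0.040). RPL41P1, of a ribosomal protein gene, measured 1414, 1921 and 1666 against 1070.3, 1391 and 1340.3 FPKM. Its change of -0.39 was not called (limma adjusted p = 0.13), and with the replicate number as a block it was (limma adjusted p = 0.018).

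Among the 215 members that reached 0.5 FPKM in each line separately, 61 were called higher and 12 lower, and the median change was 0.25. That restriction was not applied to genes of other chromosomes, so no share over all genes stands beside these counts. The level that chose the members is shared by these counts, so they describe the set and test nothing.

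Along the chromosome the rise was spread over most positions and was not even. In 13 fixed segments of 5 Mb by hg19 start, numbered from the end of the short arm, 11 had a median change above 0. Of 443 such segments with at least 8 genes on the other autosomes, 47.4% did. In 8 segments all LY19Y646F libraries lay above all LY19WT libraries (21.4% elsewhere), in 1 they lay below (24.2% elsewhere), and in 4 they overlapped.

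Segment 2, from 5 to 10 Mb, had the highest median, 1.02 over 12 genes, 7 of them called higher and 2 lower. Its library medians were -0.51, -0.56 and -0.55 in LY19WT and 0.55, 0.39 and 0.62 in LY19Y646F. Those are the widest distances between the lines of any of these 13 segments. Its median ranked first in 18 of 19 alternative fits. With no filter on low values it was 0.041 and ranked 8, and in the authors' deposited table it was 0.39 and ranked 7. The rank also rests on where the segments begin and end. In segments of 2 Mb the 7 genes from 16 Mb had 1.43 and the 13 from 4 Mb had 0.86, and in segments of 10 Mb the 21 genes from 50 Mb had 0.58 and the 48 from 0 Mb had 0.54. Segment 12, from 55 to 60 Mb, followed with 0.65 over 13 genes, and segment 8, from 35 to 40 Mb, with 0.56 over 16.

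Segment 6, from 25 to 30 Mb around the centromere, was the one with LY19Y646F below LY19WT. Its library medians were 0.25, 0.16 and -0.11 in LY19WT and -0.25, -0.15 and -0.28 in LY19Y646F, a median change of -0.40 over 11 genes. Only 5 of those are protein-coding, and their median was 0.32, so the direction of this segment turned with the gene types counted. Segments 5, 9 and 11, from 20, 40 and 50 Mb, had medians of 0.05, -0.01 and 0.16 with overlapping libraries.

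Segment 13, from 60 Mb to the end of the long arm, had a median of 0.38 over 28 genes, and its libraries overlapped. LY19Y646F replicate 1 stood at 0.71, while replicates 2 and 3 stood at -0.05 and -0.06. LY19WT replicate 1 stood at 0.009 and its other replicates at -0.35 and -0.31. Without replicate 1 of both lines the median change was 0.14. In segments 1 and 11 that omission lowered the median from 0.46 to 0.16 and from 0.16 to 0.05.

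**Figure D2:**
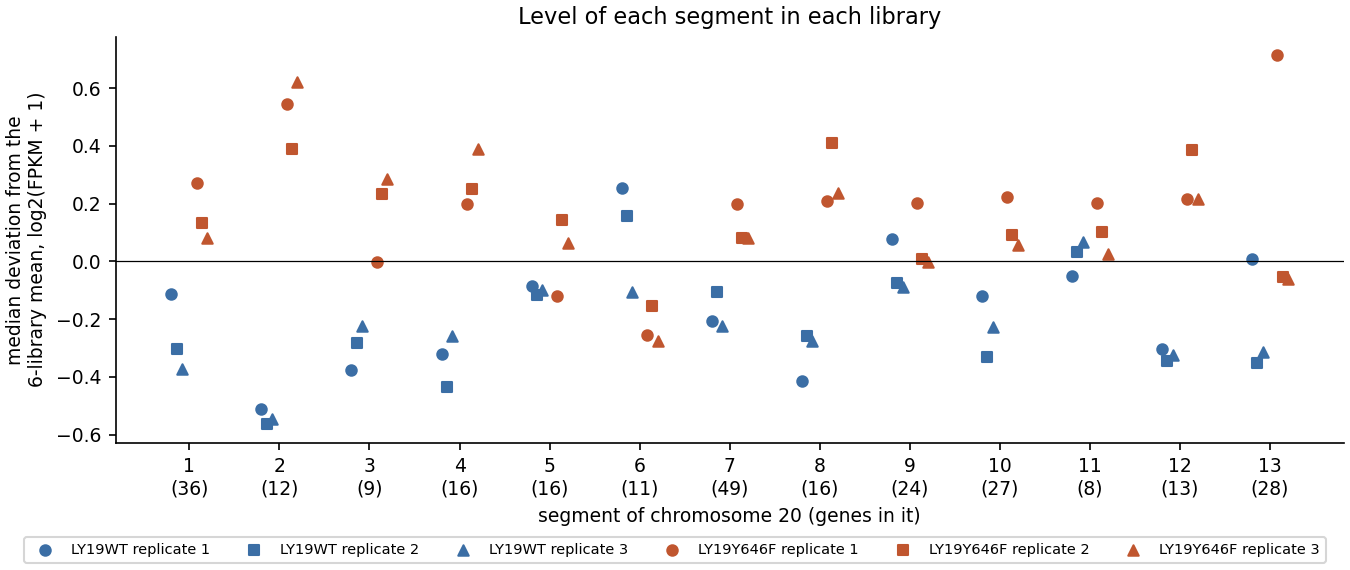
Median deviation of the genes of each 5 Mb segment from their 6-library means, on the log2(FPKM + 1) scale, for each library; the number of genes is in parentheses. The lines are farthest apart in segment 2, LY19Y646F lies below LY19WT in segment 6 alone, and replicate 1 of LY19Y646F stands apart at 0.71 in segment 13.

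A running median over 15 genes was above 0 in 231 of 251 windows. It peaked at 0.86 around GPCPD1, at 5.53 Mb, and was lowest at -0.26 around ABHD12, at 25.3 Mb. A peak of that height was not particular to chromosome 20, which ranked 10 among the autosomes. On the others the peak ran from 0.09 (chromosome 13) to 1.18 (chromosome 19). Their lowest values ran from -1.98 (chromosome 4) to -0.23 (chromosome 21). Of the 20 windows not above 0, 12 were centred from 25.2 to 30.2 Mb, and the other 8 lay on the long arm at 34.2 Mb (-0.26), between TOMM34 and ELMO2 (-0.03) and at 47.7 Mb (-0.21). Neighbours shared little of their size of change: Pearson's r between a gene and the next was 0.09 (Spearman's rho 0.07), a description across genes that share the same libraries. On the other autosomes that r ran from -0.06 to 0.28. Of 264 neighbour pairs, 40 had both genes called, 29 in the same direction and 11 in opposite directions. As 78 of the 100 called genes were higher, pairs of called genes tend to share a direction wherever they lie. The longest run of called-higher genes held 5, and other autosomes had 2 to 6.

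**Figure D3:**
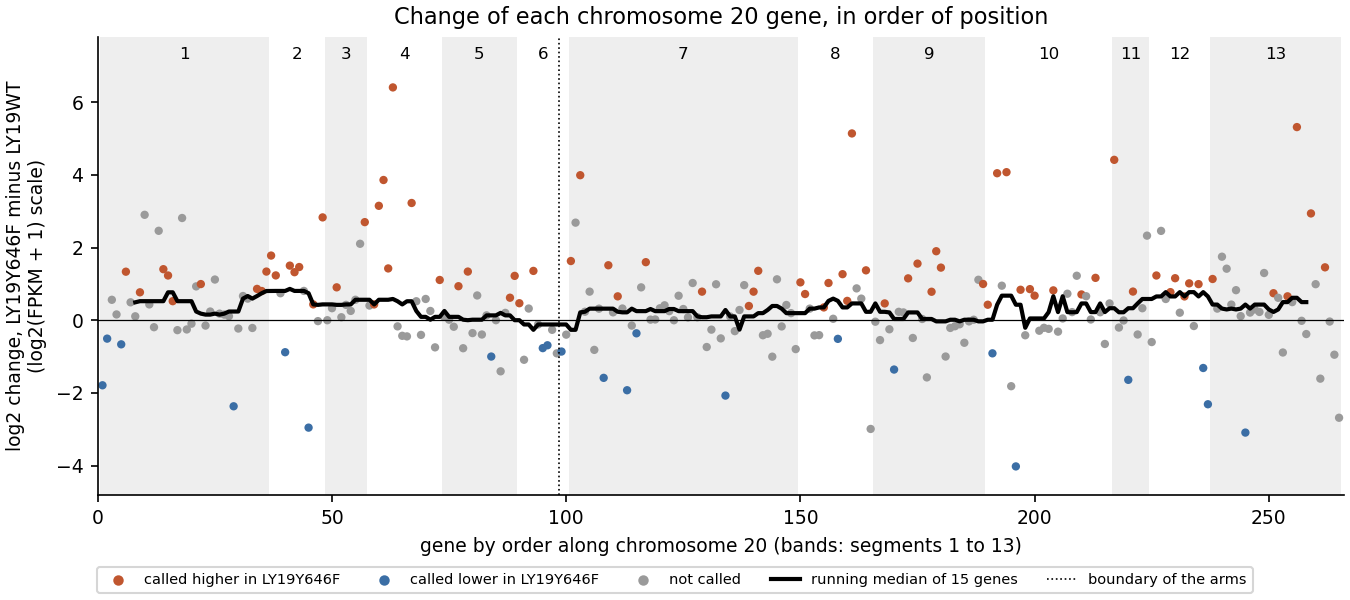
Log2(FPKM + 1) change (LY19Y646F minus LY19WT) of each of the 265 genes, in order of start along chromosome 20, with the running median of 15 genes as a line and the 5 Mb segments as bands. Genes called higher (78) lie along the whole chromosome, and the running median is highest, 0.86, in segment 2 and falls below 0 near the boundary of the arms and in short stretches of the long arm.

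The stretch with the peak holds a run of 5 consecutive genes called higher, between 4666882 and 5178533 on hg19, picked out here after its values were seen. It starts with PRNP (chr20:4666882-4682236), the prion protein gene, at 16.5, 17.2 and 17.7 FPKM in LY19WT and 28.7, 32.9 and 34.5 in LY19Y646F. RASSF2 (chr20:4760669-4804291), a Ras-association protein regarded as a tumour suppressor, measured 16.1, 19.2 and 19.8 against 29.7, 34.1 and 34.6 FPKM. SLC23A2 (chr20:4832988-4990939), a sodium-dependent vitamin C transporter, measured 5.14, 5.82 and 5.58 against 14.5, 16.7 and 15.3 FPKM. In each, the lowest LY19Y646F library lay well above the highest LY19WT library.

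TMEM230 (chr20:5080486-5093749), a membrane protein of vesicle trafficking, was the most abundant of the run, at 35.8, 39.0 and 43.9 against 135, 139.8 and 138 FPKM. CDS2 (chr20:5107432-5178533), an enzyme of phosphatidylinositol synthesis whose promoter is printed above, measured 10.1, 7.60 and 10.6 against 23.1, 22.2 and 24.9 FPKM. The 5 changes ran from 0.80 for RASSF2 to 1.78 for TMEM230, with a median of 1.23. TMEM230 had an SE of 0.10 and a limma adjusted p of 0.00017, and PRNP an SE of 0.11 and a limma adjusted p of 0.0030.

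Beyond the pseudogene UBE2D3P1, which was not called, and the non-coding LINC00654, which fell from 1.13 ± 0.0765 to 0.159 ± 0.0510 FPKM (SD, n = 3 each), another run of 3 followed between 5525077 and 5931182. GPCPD1 (chr20:5525077-5591672), a phosphodiesterase that releases choline from glycerophosphocholine, measured 5.50, 5.04 and 5.43 against 15.2, 17.5 and 18.2 FPKM (change 1.50, SE 0.12, limma adjusted p = 0.00052). C20orf196 (chr20:5731039-5844558), also called SHLD1, a shieldin subunit that acts in DNA double-strand break repair, measured 10.4, 8.12 and 9.38 against 24.5, 26.9 and 22.6 FPKM. TRMT6 (chr20:5917881-5931182), a subunit of the tRNA methyltransferase that modifies adenosine, measured 21.7, 22.4 and 23.1 against 53.7, 65.7 and 72.8 FPKM. All 3 had no overlap between the lines, with changes of 1.32 to 1.50.

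The merged row of CRLS1 and MCM8 after it was not called, and FERMT1 (chr20:6055492-6104191), kindlin-1, an adaptor of integrins best known in epithelia, went the other way. It stood at 6.15, 6.91 and 7.34 FPKM in LY19WT and at 0.0112, 0 and 0 FPKM in LY19Y646F. The change on the log2(FPKM + 1) scale was -2.96 (SE 0.12, limma adjusted p = 6.3e-05). The epithelial markers present in every library, EPCAM and KRT8, were near 0 in both lines, at most 0.102 FPKM.

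**Figure D4:**
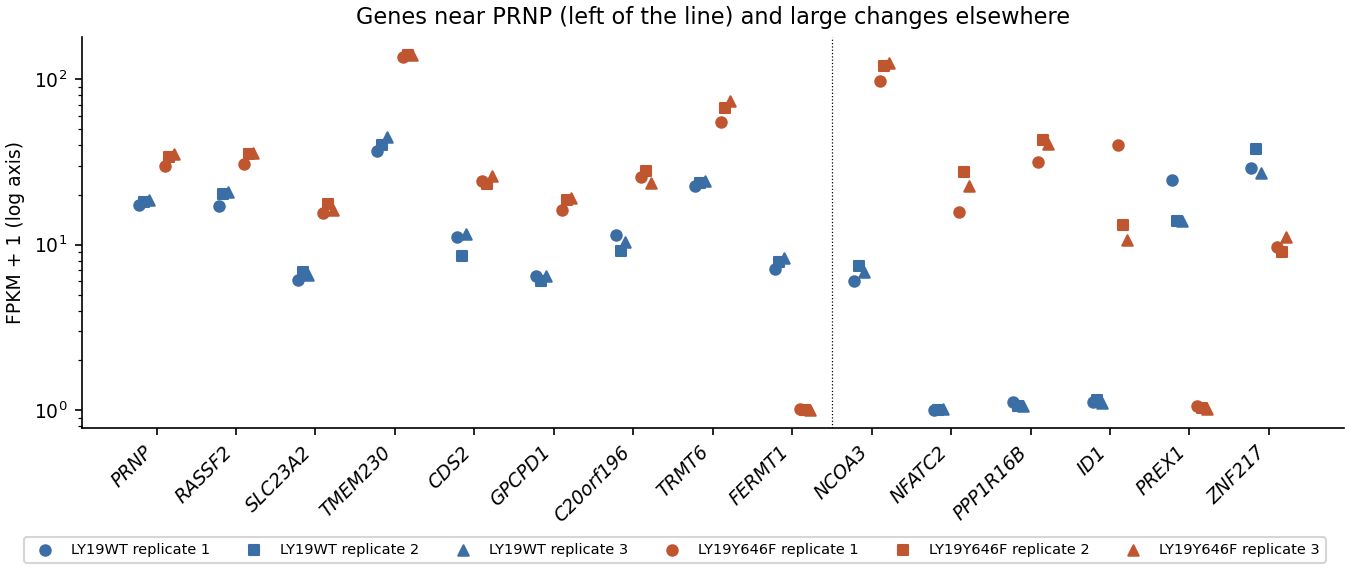
FPKM + 1 on a log axis in each library for the genes around PRNP (left of the dotted line) and for 6 genes elsewhere on chromosome 20. The first 8 genes are higher in every LY19Y646F library, FERMT1 is at or near 0 there, and PREX1 and ZNF217 are lower there while NCOA3, NFATC2, PPP1R16B and ID1 are higher.

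A further run of 5 called-higher rows lay between 16710606 and 17971765. DSTN (chr20:17550508-17590564), destrin, which takes actin filaments apart, measured 7.62, 9.46 and 7.30 FPKM in LY19WT and 126, 132 and 134 in LY19Y646F. Its change of 3.86 (SE 0.12) had a limma adjusted p of 3.2e-05. RRBP1 next to it (chr20:17594323-17662940), a receptor of ribosomes on the rough endoplasmic reticulum, measured 4.91, 4.82 and 4.42 against 15.4, 11.2 and 17.0 FPKM (limma adjusted p = 0.0028).

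SNRPB2, a spliceosomal protein of the U2 particle, changed by 0.43 (limma adjusted p = 0.049). Its call was lost without any single library except LY19WT replicate 1 (limma adjusted p = 0.064 to 0.13) and with the replicate number as a block (0.088), which leaves a run of 4. RP1-298M8.1 was listed at 0 in LY19WT and at 5.83, 6.79 and 12.1 FPKM in LY19Y646F. MGME1, a nuclease that maintains mitochondrial DNA, was listed at 0 in all LY19WT libraries and at 107, 67.6 and 81.7 FPKM in LY19Y646F. The authors' deposited table of the comparison gives MGME1 at 32.6 FPKM in LY19WT and 112 in LY19Y646F, a change of 1.75. The 0 in the library tables can therefore be a failed estimate, and the size of its fitted change is uncertain.

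The largest rises took genes from near absence to clear expression. PPP1R16B (chr20:37434348-37551667), a regulatory subunit of protein phosphatase 1, stood at 0.119, 0.0615 and 0.0660 FPKM in LY19WT and 30.6, 42.1 and 39.7 in LY19Y646F. NFATC2 (chr20:50003494-50179370), the calcineurin-dependent transcription factor NFAT1 of lymphocyte activation, stood at 0, 0.00664 and 0.0123 against 14.8, 26.7 and 21.5 FPKM. The changes were 5.14 (SE 0.16, limma adjusted p = 3.2e-05) and 4.41 (SE 0.23, limma adjusted p = 0.00012).

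NCOA3 (chr20:46130601-46285621), a steroid receptor coactivator first known as amplified in breast cancer, was already expressed in LY19WT. Its level was 5.04, 6.45 and 5.85 FPKM there and 96.2, 119.5 and 125 in LY19Y646F, a change of 4.07 (SE 0.15, limma adjusted p = 4.4e-05). RP1-148H17.1 (chr20:46016092-46041284), a transcript of unmatched type before it along the chromosome, stood at 0, 0.0300 and 0.0618 against 15.0, 15.4 and 17.8 FPKM. Both were free of overlap, and ZMYND8, the next member on the other side of RP1-148H17.1, was called lower.

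ID1 (chr20:30193086-30194318), an inhibitor of basic helix-loop-helix transcription factors, stood at 0.114, 0.145 and 0.107 against 39.1, 12.2 and 9.68 FPKM (change 3.99, SE 0.52, limma adjusted p = 0.0033). EEF1A2 (chr20:62119366-62130505), the elongation factor isoform typical of muscle and neurons, had the largest fitted change of the members above 0 in both lines, 5.31 (SE 0.96, limma adjusted p = 0.011). Its values were 0, 0 and 0.0438 in LY19WT and 124, 55.1 and 8.36 in LY19Y646F. Those libraries were widely spread, and without replicate 1 of both lines the call was lost (limma adjusted p = 0.059).

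Smaller rises included MACROD2, an ADP-ribose hydrolase gene that spans 13976015 to 16033842, from 0.177 ± 0.106 to 6.68 ± 1.20 FPKM. The row of ANKEF1 with AL109754.1 and RP5-839B4.8 rose from 0.00231 ± 0.00400 to 6.21 ± 1.34 FPKM. TOMM34, a cochaperone of mitochondrial import, rose from 24.5 ± 1.36 to 94.6 ± 10.9 FPKM, and CDK5RAP1, a tRNA-modifying enzyme of mitochondria, from 43.2 ± 4.69 to 132 ± 7.54 FPKM. TTPAL, a relative of the gene for tocopherol transfer, rose from 2.49 ± 0.981 to 9.03 ± 1.29 FPKM (SD, n = 3 each throughout). The merged row of HM13, the signal peptide peptidase, with RP3-324O17.4 rose by 1.63 (SE 0.37, limma adjusted p = 0.022), with 28.5 FPKM in LY19WT replicate 2 against 61.1 and 73.6 in the other replicates. Its call was lost without any single LY19Y646F library (limma adjusted p = 0.063 to 0.077) and without replicate 1 of both lines (limma adjusted p = 0.11).

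Falls were fewer and reached 0 or near it in several genes. PREX1 (chr20:47240790-47444420), an activator of the GTPase Rac in leukocytes, measured 23.5, 12.9 and 12.9 FPKM in LY19WT and 0.0532, 0.0281 and 0.0224 in LY19Y646F (change -4.02, SE 0.26, limma adjusted p = 0.00026). PROCR (chr20:33759876-33765165), the receptor of activated protein C, measured 4.14, 3.28 and 3.24 against 0.0594, 0.0861 and 0.0857 FPKM. CCM2L, which acts with MEKK3 in endothelium, measured 2.56, 1.51 and 2.26 against 0.0560, 0.0100 and 0.0110 FPKM. All LY19Y646F libraries of these 3 genes were below 0.1 FPKM.

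ZNF217 (chr20:52183604-52226446), a zinc finger transcription factor of the long-arm region gained in solid tumours, measured 28.1, 36.6 and 26.0 against 8.62, 8.07 and 10.1 FPKM (change -1.64, SE 0.17, limma adjusted p = 0.0015). ZMYND8 (chr20:45837859-45985567), a reader of histone marks, fell from 36.0 ± 3.79 to 18.6 ± 0.779 FPKM and C20orf112, also called NOL4L, from 5.48 ± 0.854 to 0.807 ± 0.837 FPKM (SD, n = 3 each). ZNF217 and ZMYND8 remained expressed in every LY19Y646F library, while C20orf112 stood at 1.77, 0.344 and 0.305 FPKM there.

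CABLES2 (chr20:60963688-60982341), a gene named for binding Cdk5 and Abl, measured 20.2, 9.28 and 9.33 against 0, 2.64 and 0 FPKM (change -3.09, SE 0.63, limma adjusted p = 0.015). In the authors' deposited table the change was -0.99. The call was lost without LY19WT replicate 1 (limma adjusted p = 0.052), without LY19Y646F replicate 3 (0.058) and without replicate 1 of both lines (0.10). C20orf96, at the tip of the short arm, fell from 12.1 ± 3.38 to 2.79 ± 1.03 FPKM. GTSF1L, related to a factor of germ-cell transposon silencing, fell from 2.84 ± 1.06 to 0.461 ± 0.181 FPKM (SD, n = 3 each). Without replicate 1 of both lines neither was called (limma adjusted p = 0.069 and 0.090), and GTSF1L also lost its call without LY19Y646F replicate 2 (limma adjusted p = 0.051).

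The called genes of the segment around the centromere went both ways. ABHD12, a lysophosphatidylserine lipase, measured 13.1, 12.0 and 13.8 against 34.6, 34.7 and 35.0 FPKM. ENTPD6, a nucleoside diphosphatase, changed by 0.47 (limma adjusted p = 0.027), and its call was lost without LY19WT replicate 2 or 3 or LY19Y646F replicate 2 or 3 (limma adjusted p = 0.055 to 0.091) and when merged rows were counted for each gene (0.051). Lower were ZNF337, a zinc finger gene, at 7.51 ± 0.441 against 4.01 ± 0.462 FPKM, RP13-401N8.3 at 64.6 ± 5.84 against 39.8 ± 5.33, and FRG1B at 22.3 ± 2.42 against 11.8 ± 0.364 (SD, n = 3 each). FRG1B has near-identical copies on other chromosomes, so its value is uncertain.

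The counts by function stand beside 16.3% of all genes called higher and 16.4% called lower, and beside 29.4% and 8.30% of the members on the chromosome, whose median was 0.32. Where a gene reached 0.5 FPKM in 1 line alone, that minimum fixed its direction, and the lists hold such genes. Among them are NFATC2, ID1, ZNF831, EEF1A2 and MGME1, which reached it only in LY19Y646F. PREX1, PROCR and GTSF1L reached it only in LY19WT. In the list of protein folding, turnover and transport, 10 of 21 rows (47.6%) were called higher by limma and 0 lower (13 and 0 at an unadjusted p under 0.05), 11 were not called, and the median change was 0.71. FKBP1A, the prolyl isomerase that binds FK506 and rapamycin, measured 175, 186 and 189 FPKM in LY19WT and 438, 509 and 517 in LY19Y646F (change 1.40, SE 0.09, limma adjusted p = 0.00030). PFDN4, a prefoldin subunit, rose from 79.7 ± 3.89 to 138 ± 8.66 FPKM. The merged row of TMEM189 and UBE2V1, a ubiquitin-conjugating enzyme variant, rose from 69.3 ± 3.42 to 114 ± 2.73 FPKM, and CSE1L, an exportin, from 137 ± 14.3 to 250.2 ± 34.0 FPKM (SD, n = 3 each).

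Genes of RNA processing had 7 of 17 rows (41.2%) higher and 0 lower by limma (8 and 0 at an unadjusted p under 0.05), with a median of 0.46. RAE1, a messenger RNA export factor, measured 49.4, 44.4 and 54.7 against 110.2, 111 and 131 FPKM. STAU1, which binds double-stranded RNA, rose from 31.2 ± 1.10 to 50.5 ± 3.58 FPKM (SD, n = 3 each). YTHDF1, a reader of methylated adenosine, rose by 0.66 (limma adjusted p = 0.013) and lost its call without LY19Y646F replicate 2 (limma adjusted p = 0.051). SRSF6, a splicing factor, rose by 0.46 (limma adjusted p = 0.037), a call lost without LY19WT replicate 1 or 3 or LY19Y646F replicate 2 or 3 (limma adjusted p = 0.081 to 0.11). Quantile scaling, no filter on low values and a fit with no trend ended it as well (limma adjusted p = 0.092, 0.060 and 0.056).

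Immune signalling held 6 rows higher and 1 lower of 10, with a median of 0.73. They include NFATC2, RASSF2 and PREX1, described above. TRIB3, a stress-induced pseudokinase, measured 7.42, 6.62 and 7.14 against 24.7, 17.0 and 17.1 FPKM. GNAS (chr20:57414773-57486250), the stimulatory G protein subunit and an imprinted locus, measured 275, 273 and 263 against 523, 401 and 369 FPKM. Its change of 0.65 (limma adjusted p = 0.021) was not called without any single LY19WT library or without LY19Y646F replicate 2 (limma adjusted p = 0.057 to 0.077). BLCAP, the other of the 2 imprinted genes tested, rose from 18.9 ± 1.03 to 39.7 ± 4.70 FPKM (SD, n = 3 each).

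Of the chromatin and transcription genes, 5 of 12 rows (41.7%) were higher and 1, ZNF217, was lower, with a median of 0.19. Beside NCOA3, the row of TAF4, a TFIID subunit, and MIR1257 rose from 8.71 ± 0.941 to 20.3 ± 2.14 FPKM. The row of TGIF2, a homeobox repressor of TGF-beta signalling, and C20orf24 rose from 91.4 ± 9.67 to 189 ± 20.3 FPKM (SD, n = 3 each). Developmental and lineage transcription factors had 3 of 6 rows higher and 0 lower by limma (4 and 0 at an unadjusted p under 0.05), median 0.66: NFATC2, ID1 and PLAGL2, a zinc finger gene that rose by 0.66 (limma adjusted p = 0.0049). NFATC2 and ID1 averaged 0.00633 and 0.122 FPKM in LY19WT, so they became members through LY19Y646F and could only be higher there. NFATC2 is also counted under immune signalling. The zinc finger genes had 1 of 10 rows higher and 2 lower, and a median of -0.22. The one higher was ZNF831, from 0.281 ± 0.0254 to 1.56 ± 0.239 FPKM.

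Genes of mitosis and replication gave no common direction, with 1 of 8 higher, 1 lower and a median of 0.06. TOP1 (chr20:39657458-39753127), topoisomerase I, measured 85.7, 99.4 and 105 against 176, 363 and 247 FPKM (change 1.37, SE 0.28, limma adjusted p = 0.016). Its call was lost without any single LY19WT library or without LY19Y646F replicate 3 (limma adjusted p = 0.051 to 0.057). CENPB (chr20:3764498-3767337), which binds centromeric satellite DNA, measured 21.2, 7.92 and 7.78 against 2.90, 0.854 and 0.744 FPKM (change -2.37, SE 0.51, limma adjusted p = 0.019). It was not called without LY19Y646F replicate 2 or 3 (limma adjusted p = 0.074 and 0.072).

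Mitochondrial and metabolic genes had 2 of 12 higher and 0 lower by limma, also at an unadjusted p under 0.05, with a median of 0.50. Translation genes had 1 of 4 higher and 0 lower (2 and 0 at an unadjusted p under 0.05), with a median of 0.67. The ribosomal protein gene RPS21, one of the most abundant members, was not called. Its level was 1939, 792 and 789 FPKM in LY19WT and 2690.2, 874 and 651 in LY19Y646F, with replicate 1 high in both lines. Cell surface and secreted genes had 2 of 4 higher and 1 lower (median -0.48), where the higher ones were PRNP and the merged row of NSFL1C with SIRPB2, and the lower was PROCR. NSFL1C encodes a cofactor of the ATPase p97, so that row does not read out a surface gene alone.

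Genes of the long-arm region commonly deleted in myeloid disease had 2 of 6 higher, TOP1 and SRSF6, and 1 lower, GTSF1L, with a median of -0.15. In the region gained in solid tumours 3 of 8 were higher (NCOA3, CSE1L and PFDN4), 1 was lower (ZNF217) and the median was 0.27. Of 24 genes of tissue-restricted clusters on the chromosome, none met the rule for members. AURKA, the mitotic kinase that is another gene of the gained region, was not called (58.3, 62.9 and 96.3 against 85.4, 94.3 and 88.0 FPKM), but was without LY19WT replicate 3 (limma adjusted p = 0.020).

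Among genes that start back to back, 1 pair of 5 had both genes called, in opposite directions. RefSeq places 5 pairs of members on opposite strands with starts within 1000 bases. TTI1, a cofactor of PI3K-related kinases, and RPRD1B, a regulator of RNA polymerase II, start 290 bases apart, and the printed RPRD1B window overlaps that of TTI1. TTI1 (chr20:36611409-36661870) measured 17.1, 17.5 and 18.3 against 11.0, 12.8 and 12.5 FPKM, and RPRD1B (chr20:36661948-36720768) measured 16.7, 25.7 and 26.9 against 47.6, 47.7 and 76.6 FPKM. The changes were -0.51 (limma adjusted p = 0.016, lost without LY19WT replicate 2 or 3 at 0.056 and 0.057) and 1.27 (limma adjusted p = 0.020, lost without LY19WT replicate 2 at 0.054 and without replicate 1 of both lines at 0.060), and neither pair of groups overlapped.

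CENPB starts 211 bases from CDC25B, the phosphatase that activates mitotic kinases, which changed by -0.23 without a call. STAU1 starts 121 bases from DDX27, an RNA helicase, which changed by -0.21 without a call. The pairs ESF1 and NDUFAF5, and OSER1 and its antisense gene OSER1-AS1, had no called gene, although ESF1 was called without LY19Y646F replicate 3 (limma adjusted p = 0.022). Whether the strand was used in counting is not given in the sources used here, so reads of OSER1 and OSER1-AS1 may not be fully separated.

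Replicate 1 stood apart from the other replicates in both lines for GC-rich genes of the chromosome. The distance of replicate 1 from the mean of replicates 2 and 3 went with the GC content of the longest GENCODE transcript, with r = 0.40 in LY19WT and 0.41 in LY19Y646F (Spearman's rho 0.51 and 0.54), a description across 242 genes that share these libraries. In both lines replicate 1 was the highest library for 76 of the 265 genes. From 60 Mb on, where the median GC content was 60.8%, this held for 18 of 28 genes, against 58 of 237 before. These counts were not made for other chromosomes. Across all genes tested, deviations of replicate 1 from the line means had r = 0.27 between the lines. The change between the lines itself had r = -0.12 with GC content.

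**Figure D5:**
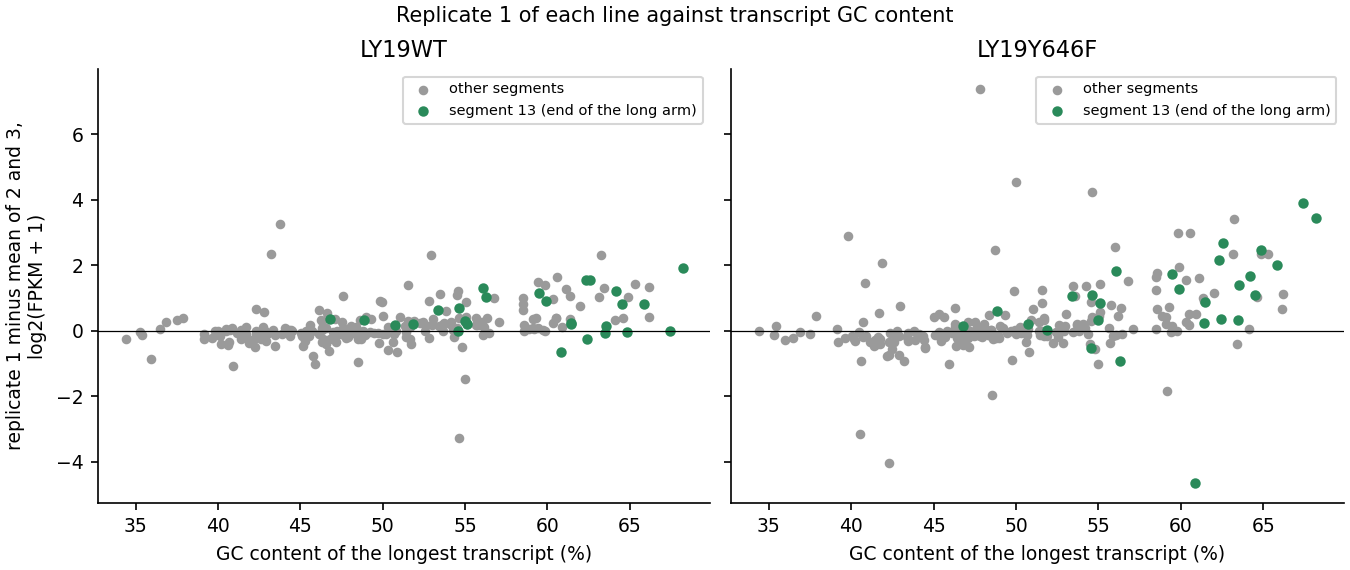
Replicate 1 minus the mean of replicates 2 and 3, on the log2(FPKM + 1) scale, against the GC content of the longest transcript in percent, for 242 chromosome 20 genes in LY19WT (left) and LY19Y646F (right). Genes of segment 13, in green, lie to the right and mostly above 0 in both lines.

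Leaving replicate 1 of both lines out gave 117 called genes, 88 higher and 29 lower. That is 44.2% of the members, beside 42.2% of all genes in the same fit, where the full set of libraries gave 32.7% of all genes. The median change of the members was then 0.24. The part of GC content in the results was not tested.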

How the data were processed

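A stranded kit for mRNA was used for the 6 libraries, 3 a line, with single-end reads, per the labels' protocols. Reads were aligned with STAR 2.5.3a and quantified with Cufflinks 2.2.1 and Cuffdiff 2.2.1 on hg19, per the submitters' processing notes. The deposited library tables give FPKM per gene, which the authors scaled to transcript length and library total; absolute depth is unknown. The authors' deposited comparison table gives mean FPKM and a log2 fold change for 212 of the 265 members tested.

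Rows were taken by gene name as written, so a row that names several genes is its own unit, and summed per name and library. Values were tested as log2(FPKM + 1), a scale that understates changes of low genes, with limma 3.58.1 in R 4.3.3 (trend, two-sided, Benjamini-Hochberg over 10588 genes, threshold 0.05). The fit was tested on simulated data. Coordinates are hg19, counted from 1. Gene types and transcript GC came from GENCODE and promoters from RefSeq GRCh38.p14, both matched by symbol.

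Genes were named by a rule: the 15 largest rises and falls among called members free of overlap, of at least 2 FPKM in the higher line, above 0 in some library of each line and, where the deposited comparison table holds them, with its sign, up to 4 called members per gene list, those of the highest and lowest segment, and the 3 most abundant. The values of 1 gene that met this rule are not reported here. The members and the 14 lists were chosen with earlier results of these data known. The main fit was unpaired, with no replicate block. Deviations of same-numbered libraries from their line means had r = 0.27, 0.11 and 0.14 for replicates 1, 2 and 3, across genes. Replicates 2 and 3 are not clearly paired. LY19WT replicate 3 with LY19Y646F replicate 2 had r = 0.094, and LY19WT replicate 2 with LY19Y646F replicate 3 had 0.059. A block by replicate number was therefore an alternative setting only, and the labels do not give pairs. Python 3.11.15 with pandas 2.3.3, numpy 2.4.6 and matplotlib 3.10.9 was used for joins and plots.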

Additional observations from a re-analysis of the deposited data

How the results depend on the processing

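None of the 58 genes that met the naming rule changed direction past the threshold under any setting run. The median of the segment from 25 Mb turned from -0.40 to 0.32 with protein-coding genes alone. The counts of 100 called, 78 higher and 22 lower ranged from 77 to 116, 60 to 85 and 17 to 31 when 1 library was left out. In those fits 25.3% to 37.1% of all genes were called. Library weights gave 157 called and 41 lower, 59.2% of the members beside 53.2% of all genes. With the replicate block 109 were called (82 higher, 27 lower), 94 of them also called without it, and 6 were lost. Those 109 were 41.1% of the members, beside 35.5% of all genes in that fit. Among the genes that met the naming rule the block changed only the call of RPL41P1 (limma adjusted p = 0.018), and of the other genes given above it ended that of SNRPB2 (0.088). Of the 100, 68 were called in every fit that tested them. Other fits gave 85 to 123 called, of unlike numbers tested, where 17.6% to 42.2% of all genes were called. At a minimum of 2 FPKM 85 of 212 were called (40.1%, beside 34.9% of all genes). With merged rows counted for each gene 123 of 410 were (30.0% beside 26.0%), and without the filter 119 of 547 (21.8% beside 17.6%). Leaving out 1 library at a time gave medians of 0.23 to 0.38 for all members, 0.29 to 0.41 for the short arm and 0.17 to 0.36 for the long arm. By segment those ranges were 0.17 to 0.55 from 0 Mb, 0.95 to 1.16 from 5 Mb, 0.00043 to 0.18 from 20 Mb, -0.60 to -0.26 from 25 Mb, 0.11 to 0.29 from 30 Mb, -0.042 to 0.15 from 40 Mb, 0.32 to 0.52 from 45 Mb and 0.089 to 0.27 from 50 Mb. Medians that moved by more than the spread between libraries follow, each segment by its first Mb; the cause was not tested. With genes alone in their row, the short arm had 0.33 and segment 45 had 0.32. With library weights, the short arm had 0.34, and segments 0, 20 and 55 had 0.25, 0.19 and 0.77. At a minimum of 2 FPKM, the short arm had 0.51, and segments 5, 15 and 45 had 1.23, 0.59 and 0.32. Counting merged rows for each gene gave 0.43 for all members and 0.43 for the long arm, 1.23, 0.35, 0.50, 0.66 and 0.52 for segments 5, 35, 40, 45 and 55, and a neighbour r of 0.20. Without the filter 547 genes were tested, many of them near 0, and the medians were 0.039, 0.035 and 0.040 for all members, short and long arm. Segments 0, 5, 10, 15, 25, 30, 35, 45, 50 and 55 then had 0.095, 0.041, 0.082, 0.053, -0.050, 0.045, 0.040, 0.035, 0.075 and 0.14. Protein-coding genes alone, a setting chosen after seeing the data, gave 0.41 for all members, 0.57 for the short arm, and 1.32, 0.73, 0.59, 0.62, 0.32 and 0.56 for segments 5, 10, 15, 20, 25 and 50. A pseudocount of 0.1 gave 0.47 for the short arm and -0.70, 0.68 and 0.86 for segments 25, 35 and 55, and one of 0.5 gave -0.69 and 0.67 for segments 25 and 35. Quantile scaling, which moved the median of all genes to 0.05, gave 0.47 for the short arm and 0.58, 0.21, -0.23, 0.10 and 0.87 for segments 15, 20, 25, 40 and 55. Without replicate 1 of both lines, also chosen after seeing the data, the short arm had 0.29, and segments 0, 5, 50 and 55 had 0.16, 1.29, 0.049 and 0.78. In the authors' deposited table the short arm had 0.32, and segments 0, 5, 20, 25, 35 and 50 had 0.26, 0.39, 0.28, -0.081, 0.44 and 0.27. Of those 58 genes, 12 lost their call under at least 1 setting, all given beside their values, and 2 that were not called gained one, TMSB4XP6 and RPL41P1, both also with library weights (limma adjusted p = 0.021 each). Fits without 1 library leave 2 in a line and borrow the spread of the other genes and libraries.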

Other observations

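Further called members outside the rule for names were picked after their values were seen, so they describe single genes and no group. VAPB, an anchor protein of the endoplasmic reticulum, measured 14.6, 14.6 and 14.1 FPKM in LY19WT and 25.7, 37.0 and 38.9 in LY19Y646F (limma adjusted p = 0.0060). NAPB, a factor of membrane fusion, measured 4.15, 4.57 and 4.52 against 10.2, 12.0 and 12.7 FPKM (limma adjusted p = 0.0015). NAA20, a subunit of an N-terminal acetyltransferase, measured 70.0, 60.9 and 64.7 against 145, 140.0 and 139 FPKM (limma adjusted p = 0.00051). In these genes no library of one line reached the other line. SYCP2, a protein of the synaptonemal complex of meiosis, measured 1.32, 1.74 and 1.82 against 0.0490, 0.0581 and 0.0483 FPKM (limma adjusted p = 0.0015).

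Some members were listed at 0 in a whole line, where a 0 can be a failed estimate and no fold is given. LY19WT had 14 such members, 6 of them called, and LY19Y646F had 4, with PPP1R3D, a glycogen-targeting subunit of protein phosphatase 1, called at 3.83, 3.84 and 4.24 FPKM in LY19WT. For DZANK1 the authors' deposited table gives 2.34 FPKM in LY19WT where the library tables list 0 throughout. NDUFAF5, an assembly factor of mitochondrial complex I, was listed at 0 in 5 libraries and at 78.4 FPKM in LY19Y646F replicate 3, and the deposited table gives 40.3 and 70.2 FPKM for the lines.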
